A study of Mus musculus with 4 samples.

Results

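The histone mark H4K16ac, acetylated lysine 16 of histone H4, was examined across 8 stretches of the mouse genome that hold 10 imprinted genes, H19, Igf2, Cdkn1c, Meg3, Dlk1, Peg3, Snrpn, Igf2r, Peg10 and Mest. The stretches, called spans here, were set as positions on mouse build mm9, with earlier results of these data known, and together they make up 1340 kb. Members are the regions of H4K16ac enrichment, called islands, that overlap a span by at least 1 base. They number 32 of the 40570 islands listed for embryonic stem cells (ESC) and 40 of the 48278 listed for neural progenitor cells (NPC). Both populations came from 46c, a mouse ES cell line with GFP placed in Sox1, a gene that is active in neural progenitors. The ESC were undifferentiated. The NPC had been differentiated for 5 days with NB27 and Neuro2 supplements and sorted for GFP, and the labels name no treatment beyond this. Chromatin was cut with micrococcal nuclease and precipitated with 1 lot of a Millipore H4K16ac antibody, and each cell type gave 1 ChIP library and 1 input library.

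Imprinted genes are expressed mainly from the copy inherited from one parent. A stretch of DNA at each cluster acquires methylation in only the egg or only the sperm and keeps it after fertilisation, and this mark sets which copy is active. H4K16ac is an acetyl mark of active chromatin that is placed mainly by the acetyltransferase MOF. Reads were not assigned to a parental copy, so the values below are sums over both copies.

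Neither cell type had a replicate, so no test was made, and each difference between ESC and NPC compares these 2 libraries. The ESC list held 17935144 reads in its islands and the NPC list 24386370. Reads that fell outside islands are not in the lists, and a span without an island may still carry the mark. Intervals given for reads are exact Clopper-Pearson intervals of 95% and cover counting error only. Labelled cell types could not be checked against marker genes, because no mm9 annotation was used here. For the same reason islands are given by position and are not assigned to a promoter, exon or intron.

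Promoter sequences of 4 members are shown because they stand for the contrasts described below. Mest and Snrpn lie in spans where an island was called in ESC alone, Peg3 in a span with a small part covered in both cell types, and Igf2r in the span with the highest covered share in both. Methylation at imprinted loci is set on CG dinucleotides, which are in capitals. The sequences are from RefSeq on build GRCm38.p6, a later build than that of the islands, and run from 250 bases before to 50 bases after a transcript start, 5′ to 3′ on the gene's strand. Of the starts listed for a gene, the one with most CG was taken. Their places are chr6:30737800-30738099 on the plus strand for Mest, and chr7:60005150-60005449, chr7:6730370-6730669 and chr17:12769657-12769956 on the minus strand for Snrpn, Peg3 and Igf2r.
Mest: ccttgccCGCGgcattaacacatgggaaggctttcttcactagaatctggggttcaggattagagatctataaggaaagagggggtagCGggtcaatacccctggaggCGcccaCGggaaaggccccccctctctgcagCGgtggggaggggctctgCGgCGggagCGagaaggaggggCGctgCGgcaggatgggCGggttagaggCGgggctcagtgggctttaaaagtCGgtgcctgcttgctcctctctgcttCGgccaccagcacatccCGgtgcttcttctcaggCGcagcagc
Snrpn: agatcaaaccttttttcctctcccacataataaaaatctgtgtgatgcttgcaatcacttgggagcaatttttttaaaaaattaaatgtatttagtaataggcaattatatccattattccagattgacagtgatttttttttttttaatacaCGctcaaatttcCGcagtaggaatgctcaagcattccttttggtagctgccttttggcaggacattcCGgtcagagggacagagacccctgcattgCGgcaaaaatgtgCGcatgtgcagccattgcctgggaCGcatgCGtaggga
Peg3: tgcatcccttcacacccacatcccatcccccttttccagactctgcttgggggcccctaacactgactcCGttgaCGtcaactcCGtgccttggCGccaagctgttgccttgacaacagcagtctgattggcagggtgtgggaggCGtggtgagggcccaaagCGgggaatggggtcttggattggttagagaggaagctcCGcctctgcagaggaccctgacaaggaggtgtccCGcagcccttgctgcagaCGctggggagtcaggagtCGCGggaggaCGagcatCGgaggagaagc
Igf2r: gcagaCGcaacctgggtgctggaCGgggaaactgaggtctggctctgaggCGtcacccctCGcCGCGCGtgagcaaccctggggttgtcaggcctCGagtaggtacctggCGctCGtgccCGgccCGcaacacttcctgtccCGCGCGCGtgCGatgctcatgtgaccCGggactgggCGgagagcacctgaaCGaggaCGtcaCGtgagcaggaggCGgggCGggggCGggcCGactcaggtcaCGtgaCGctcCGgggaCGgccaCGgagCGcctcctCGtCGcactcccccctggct

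The Igf2r promoter held 34 CG dinucleotides, more than 92.3% of the 32851 promoters in the table. Mest held 17 and Peg3 held 13, and Snrpn, with 7, was at the median of the table. Of the other members, Igf2 held 24, Meg3 13 and Dlk1 9, so 7 of 10 members had an entry. CG was counted as the letters CG, which read the same on both strands, and 94.6% of all promoters in the table held at least 1. The counts describe sequence, and whether an island lay over one of these promoters was not tested.

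Islands covered 11.7% of the imprinted spans in ESC and 30.4% in NPC, that is 157 kb and 408 kb. Over all autosomes the covered shares were 7.68% and 12.4%. The spans did not move together. In NPC the covered part was larger in 4 of 8 spans, those of H19 and Igf2, Cdkn1c, Meg3 and Dlk1, and Igf2r, and smaller in the other 4, those of Peg3, Snrpn, Peg10 and Mest. Among autosomal windows of 200 kb with an island, 55.7% had more bases covered in NPC, so the count of 4 of 8 is near the background. The Igf2r span alone held 80.6 of the 157 kb covered in ESC and 125 of the 408 kb covered in NPC. Without it the covered shares were 6.70% and 24.8%.

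**Figure D1:**
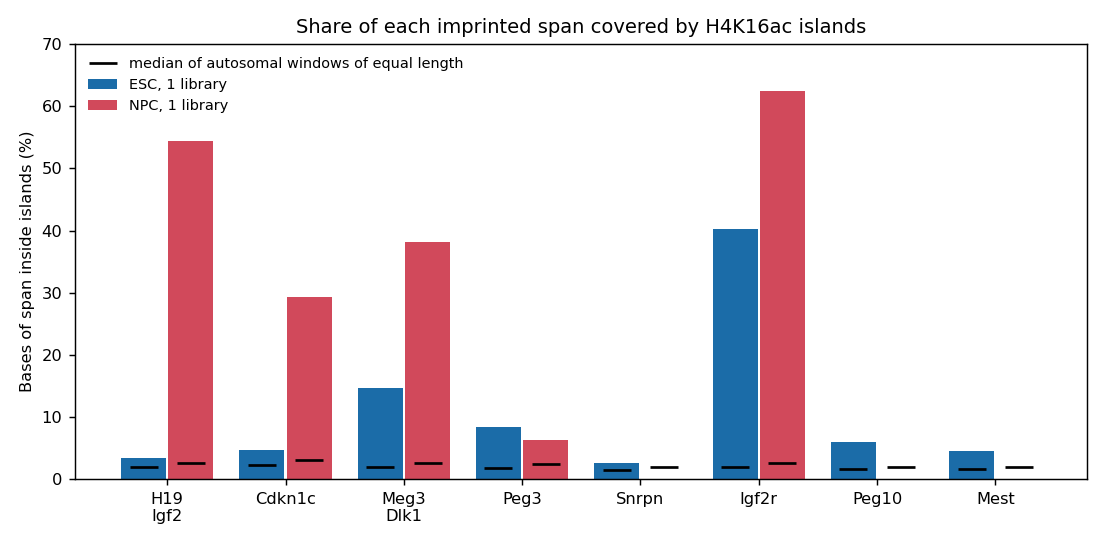
Bars give the share of bases inside H4K16ac islands (%) for each imprinted span in ESC (blue) and NPC (red), 1 library each, and black lines give the median over autosomal windows of the same length. These windows include those without an island. NPC bars reach 54.4% at H19 and Igf2 and 62.5% at Igf2r, and there is no NPC bar at Snrpn, Peg10 and Mest.

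The spans can be grouped by the expressed copy of their genes or by the copy that carries germline methylation. These groupings were made with earlier results of these data known and carry no test. H19, Cdkn1c, Meg3 and Igf2r are expressed from the maternal copy, and the 4 spans that hold them had more bases covered in NPC, by 1.55 to 15.5 times. Peg3, Snrpn, Peg10 and Mest are expressed from the paternal copy, and the 4 spans named for these genes alone had fewer, from none to 0.746 times the ESC bases. Taken as groups, covered shares went from 14.6% in ESC to 44.2% in NPC in the former and from 5.82% to 2.14% in the latter. The split rests on placing 2 mixed spans in the former group, since Igf2 and Dlk1 are paternally expressed and their spans had more bases covered in NPC. The former spans are also the longer ones, at 200 to 300 kb against 90 to 150 kb, so length and expressed copy cannot be told apart here. The surroundings of the former spans shared the difference. Widened by 50 kb on both sides, NPC minus ESC was 47.5 points at H19 and Igf2, 28.5 at Cdkn1c, 23.3 at Meg3 and Dlk1 and 26.5 at Igf2r. For the spans alone it was 50.9, 24.6, 23.4 and 22.2 points. The other 4 spans, widened likewise, kept fewer bases in NPC. Of the former, 2 lie near each other on chromosome 7. The H19 and Igf2 span ends at 149900000 and the Cdkn1c span starts at 150400001, so they need not be independent. Grouped by germline methylation, NPC coverage was larger in 2 of 2 spans with the mark on the paternal copy (9.1% in ESC and 46.25% in NPC) and in 2 of 6 with it on the maternal copy (12.8% and 23.7%).

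The largest difference in covered share lay at H19 and Igf2. H19 gives a long noncoding RNA from the maternal copy, and Igf2 encodes a fetal growth factor expressed from the paternal copy. A methylated control region between them decides which gene reaches shared enhancers. In ESC, 2 islands covered 7 kb of the 200 kb span, or 3.5%. In NPC, 9 islands covered 109 kb, or 54.4%. ESC coverage was near the middle of the genome's range, with 40.9% of 12350 autosomal windows of that length covered more. NPC coverage was in the upper tail, with 4.87% of windows covered more.

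Reads followed the bases at this locus. The span's islands held 651 reads in ESC and 9654 in NPC, or 36.3 and 396 reads per 1000000 island reads (RPM). The log2 of NPC over ESC RPM was 3.45 (3.33 to 3.56). Part of the NPC reads belonged to an island that starts before the span. The widest NPC island, from 149766201 to 149800400 on chromosome 7, spanned 34.2 kb and held 2972 reads, and the nearest ESC island was 43.8 kb away. Islands from 149733801 to 149746600 (1070 reads), 149747401 to 149761400 (1226 reads) and 149806801 to 149819000 (1060 reads) formed a chain around it with no ESC island among them. The 2 ESC islands lay at 149716601 to 149722400, with 512 reads, and 149846001 to 149847200, with 139 reads. The former overlapped an NPC island of 278 reads at 149719001 to 149722400, and these 3.4 kb were the only bases shared, 48.6% of those covered in ESC and 3.12% of those covered in NPC.

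At Meg3 and Dlk1, the NPC covered more bases and mostly other ones. Meg3 is a maternally expressed noncoding RNA at the head of a cluster of small RNAs, and Dlk1, expressed from the paternal copy, encodes a Notch-related membrane protein. The 8 ESC islands covered 29.4 kb of 200 kb (14.7%) and the 11 NPC islands 76.2 kb (38.1%). They held 2620 reads in the former and 6199 in the latter, or 146 and 254 RPM, a log2 of 0.80 (0.73 to 0.87). Of 12350 autosomal windows of this length, 18.2% were covered more in ESC and 11.3% in NPC.

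The ESC islands of this span stood apart from the NPC ones in its middle. ESC islands lay at 110763801 to 110765000 (123 reads), 110765801 to 110772000 (768 reads) and 110777201 to 110782000 (411 reads) on chromosome 12, and the nearest NPC islands were 12.2 to 16.6 kb away. NPC islands lay before them, at 110726401 to 110735800 (725 reads) and 110740401 to 110749200 (734 reads), 28.0 and 14.6 kb from the nearest ESC island. The NPC islands with most reads lay elsewhere, at 110648401 to 110661800 (1206 reads, starting before the span) and 110813801 to 110827200 (1108 reads). They were 24.6 and 3.2 kb from the nearest ESC island. Toward the far end the cell types overlapped. The shared regions were 110803801 to 110812800 (536 reads in ESC, 708 in NPC) and 110839201 to 110849200 (279 and 653). Only 10.8 kb were shared, 36.7% of ESC and 14.2% of NPC bases.

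**Figure D2:**
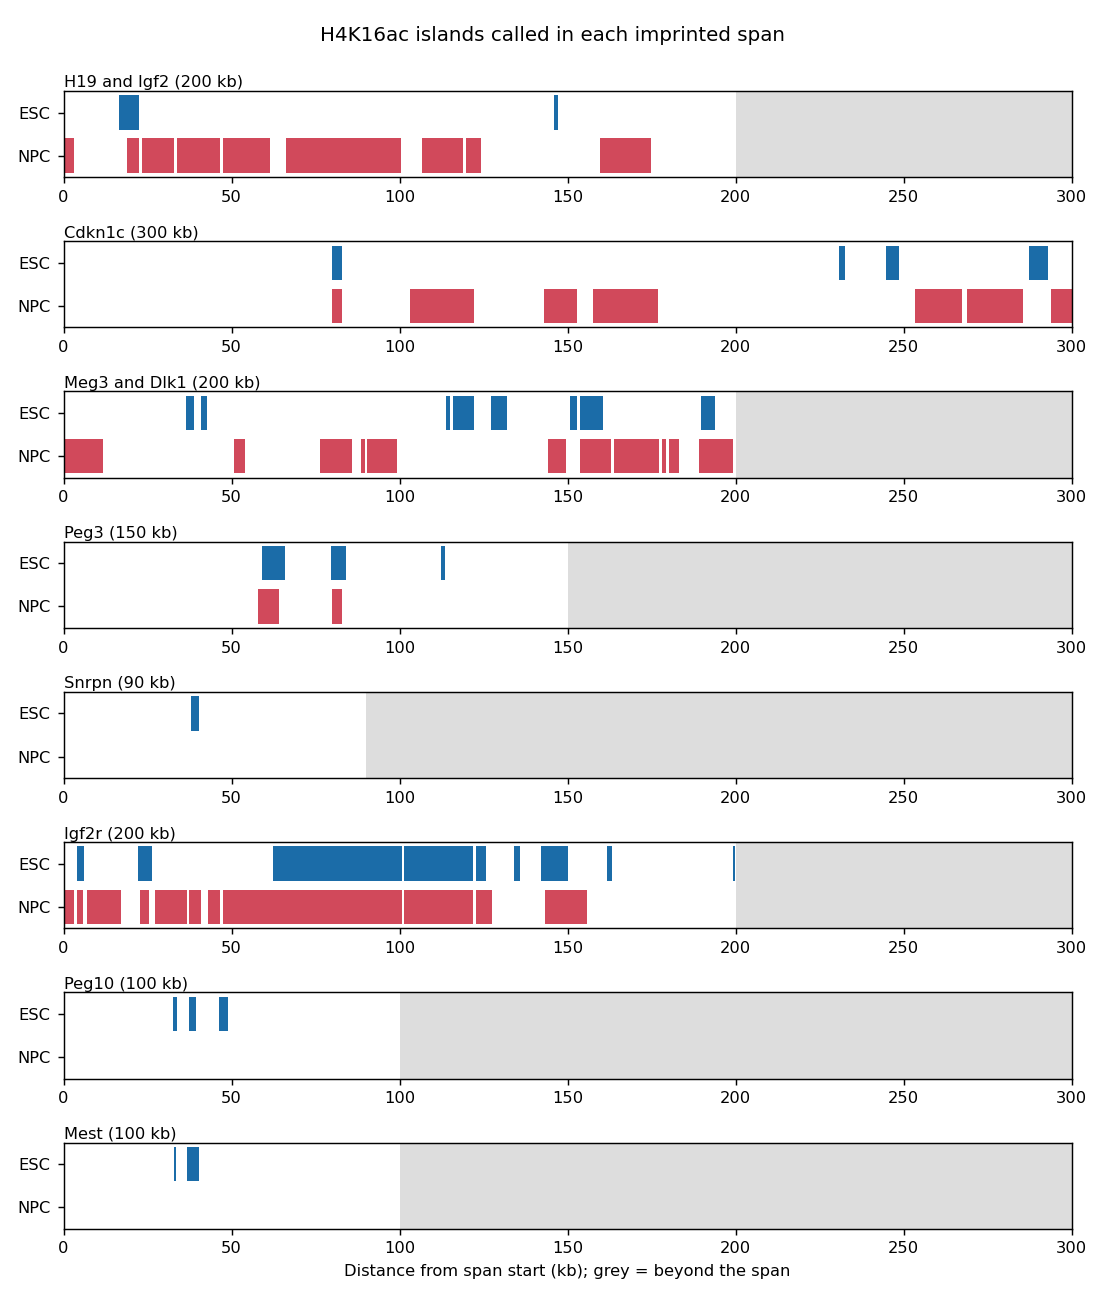
Each panel maps the H4K16ac islands of 1 imprinted span by distance from the span's start (kb), with ESC in blue above and NPC in red below, cut at the span's ends. NPC islands form long chains at H19 and Igf2 and at Igf2r, and Snrpn, Peg10 and Mest hold ESC islands alone.

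Cdkn1c and Igf2r are maternally expressed genes in clusters whose germline methylation lies on the maternal copy, at the start of a paternally expressed noncoding RNA (Kcnq1ot1 and Airn). Cdkn1c encodes p57, an inhibitor of the cell cycle, and its neighbours in the RefSeq table of GRCm38.p6 include Kcnq1, Slc22a18 and Phlda2. In its 300 kb span, 4 ESC islands covered 14.4 kb (4.8%) and 7 NPC islands 88.2 kb (29.4%). The span's islands held 1851 reads in ESC and 8286 in NPC, or 103 and 340 RPM, a log2 of 1.72 (1.65 to 1.79). The last NPC island, with 1507 reads, had only 6200 of its 20600 bp inside the span. Its reads are counted whole, which raises the NPC sum and the log2, and the interval leaves this out. Of 8228 autosomal windows of this length, 38.4% were covered more in ESC and 16.1% in NPC.

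One position of the Cdkn1c span was called in both cell types, and it was the densest ESC island of all 8 spans. At 150479801 to 150483000 on chromosome 7, ESC had 611 reads in 3.2 kb, or 191 reads per kb, a density above that of 97.6% of nuclear ESC islands. NPC had 235 reads in 3 kb, or 78.3 reads per kb, and the log2 in RPM was -1.82 (-2.05 to -1.60). The wide NPC islands lay elsewhere. Those at 150503001 to 150522200 (1589 reads) and 150557401 to 150576800 (1604 reads) were 20 and 54 kb from the nearest ESC island. At the far end the cell types alternated, with an ESC island of 722 reads at 150687201 to 150692800 between NPC islands that ended at 150685400 (1454 reads) and began at 150693801 (1507 reads).

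Igf2r was the span with the highest covered share in both cell types and the most shared bases, 73.2 kb. Igf2r encodes the receptor that clears IGF2 and carries it to lysosomes, and its neighbours in the RefSeq table include Airn and Mas1. In ESC, 9 islands covered 80.6 kb of 200 kb (40.3%), and in NPC, 11 islands covered 125 kb (62.5%). Only 3.34% of autosomal windows of this length were covered more in ESC, and 2.88% in NPC. Reads were 7208 in ESC and 11012 in NPC, or 402 and 452 RPM, a log2 of 0.17 (0.13 to 0.21). The shared bases were 90.8% of ESC and 58.6% of NPC covered bases.

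The widest islands of both cell types lay together in the Igf2r span and differed in where they began. An ESC island at 12862201 to 12900600 on chromosome 17 (38.4 kb, 3404 reads) lay wholly inside an NPC island at 12847401 to 12900600 (53.2 kb, 4996 reads), and both ended at the same base. The next island, 12901401 to 12921800, had the same start and end in both lists, with 1865 reads in ESC and 1938 in NPC. In RPM the former region had a log2 of 0.11 (0.05 to 0.17) and the latter -0.39 (-0.48 to -0.30). The 3 narrow ESC islands of the span without an NPC counterpart were the densest there. They held 215 reads at 12934001 to 12935800, 256 at 12961601 to 12963200 and 93 at 12999201 to 12999800, or 119, 160 and 155 reads per kb.

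The 4 spans named only for paternally expressed genes had few NPC islands. In 440 kb they held 9 ESC and 2 NPC islands, beside 23 and 38 in the 900 kb of the other 4 spans. Their covered shares were 5.82% in ESC and 2.14% in NPC, beside 7.68% and 12.4% over all autosomes. Both NPC islands were at Peg3. Peg3 encodes a large zinc finger protein and has Zim1 and Usp29 as neighbours in the RefSeq table. Its 150 kb span was covered to 8.4% in ESC (12.6 kb, 3 islands, 1211 reads) and 6.27% in NPC (9.4 kb, 2 islands, 615 reads). The log2 in RPM was -1.42 (-1.56 to -1.28). Of 16467 autosomal windows of this length, 26.2% were covered more in ESC and 39.5% in NPC.

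At Peg3 8.4 kb were shared, 66.7% of ESC and 89.4% of NPC covered bases. At 6658001 to 6666000 on chromosome 7, ESC had 459 reads over 7 kb and NPC 398 over 6.2 kb, with a log2 in RPM of -0.65 (-0.85 to -0.45). At 6679601 to 6684000, ESC had 634 reads over 4.4 kb (144 reads per kb) and NPC 217 over 3.2 kb (67.8 reads per kb). This second position had the lowest log2 in RPM of the shared regions in the 8 spans, -1.99 (-2.22 to -1.77). The third ESC island, at 6712401 to 6713600, held 118 reads and lay 29.4 kb from the nearest NPC island.

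Snrpn, Peg10 and Mest had an island in ESC alone. Snrpn encodes a spliceosomal protein and starts from the imprinting centre of the Prader-Willi and Angelman region, Peg10 derives from a retrotransposon and is needed in placenta, and Mest encodes a hydrolase-like protein. Among autosomal windows of 100 kb with ESC island bases, 28.4% had no NPC island bases, and the 3 spans of 90 or 100 kb in this set had none either. The 5 longer spans each had an NPC island. The only Snrpn island, at 67147801 to 67150200 on chromosome 7, held 449 reads in 2.4 kb. Its 187 reads per kb exceeded 97.1% of nuclear ESC islands. The nearest NPC island was 663 kb away, whereas the median distance over nuclear ESC islands without a counterpart was 20 kb.

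Peg10, which adjoins Sgce in the RefSeq table, had 3 ESC islands on chromosome 6. They held 180 reads at 4682601 to 4683800, 251 at 4687401 to 4689400 and 342 at 4696201 to 4699000. All 3 were dense, at 150, 126 and 122 reads per kb, and the nearest NPC island was 200 to 213 kb away. Mest, between Cep41 and Copg2 in the RefSeq table, had 2 ESC islands on chromosome 6, with 94 reads at 30682801 to 30683600 and 459 at 30686601 to 30690400. Their densities were 118 and 121 reads per kb, and the nearest NPC island was 69.2 and 62.4 kb away. The covered shares in ESC were 2.67% at Snrpn, 6% at Peg10 and 4.6% at Mest. Medians over all autosomal windows of 90 and 100 kb were 1.56% and 1.6%, and 41.0%, 29.6% and 33.2% of windows were covered more. These windows include ones without ESC island bases, 40.0% and 37.5% of them, whereas each of the 3 spans held an ESC island. Among windows with ESC island bases the medians are therefore higher, and whether the spans exceed them was not tested.

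Dense ESC islands were present in 7 of 8 spans. With at least 120 reads per kb as the limit, 11 of 32 ESC islands and 0 of 40 NPC islands were dense, beside 28.4% and 1.57% of nuclear islands in the lists. The limit is on reads as deposited, and the NPC list holds more reads. The lowest density inside the limit was 121 reads per kb, at Mest, and the highest outside was 119, at Igf2r. All 6 spans whose germline methylation lies on the maternal copy (Cdkn1c, Peg3, Snrpn, Igf2r, Peg10 and Mest) had at least 1 dense ESC island. Of the 2 spans with germline methylation on the paternal copy, Meg3 and Dlk1 had 1, at 124 reads per kb, and H19 and Igf2 had none, with 116 as the highest. By expressed copy, the 4 spans named only for paternally expressed genes all had one, as did 3 of the other 4. A dense ESC island was present in 52.9% of all autosomal windows of 200 kb and in 33.5% of those of 100 kb. These shares include windows without ESC island bases, 21.8% and 37.5% of them, whereas all 8 spans held an ESC island. Among windows with ESC island bases the background is therefore higher. Of the 11 dense ESC islands, 2 overlapped an NPC island, those of Cdkn1c and Peg3 described above. The same share over all dense nuclear ESC islands was not computed. This count therefore has no background, and whether it is particular to the spans cannot be told.

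**Figure D3:**
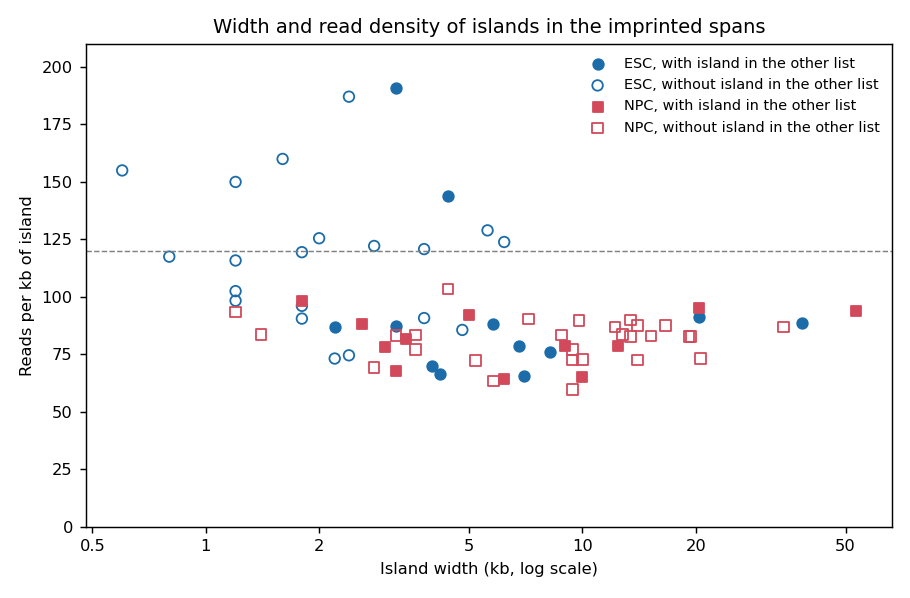
Each point is 1 island of the imprinted spans, by width (kb, log axis) and reads per kb, for ESC (blue circles) and NPC (red squares), filled where the other list has an overlapping island. The dashed line is at 120 reads per kb, with 11 ESC islands and no NPC island above it.

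Islands of the spans differed in shape between the cell types. ESC islands had a median width of 3000 bp (600 to 38400), equal to the median of the list, and a median of 97.2 reads per kb (65.6 to 191), beside 93.3 in the list. NPC islands had a median width of 9400 bp (1200 to 53200), beside 4200 bp in the list, and a median of 82.8 reads per kb (59.8 to 103), beside 76.6. Islands of at least 8 kb made up 3 of 32 in ESC and 23 of 40 in NPC, beside 14.7% and 24.1% of nuclear islands. The 20 ESC islands without a counterpart had a median of 118 reads per kb, and the 12 with one 87.0. In NPC the same medians were 83.0 and 80.3. Medians by counterpart over the whole lists were not computed, so these differences have no background.

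Few islands of the spans were shared, as in the lists at large. Of 32 ESC islands, 12 (37.5%) overlapped an NPC island, beside 39.8% of nuclear ESC islands. Of 40 NPC islands, 12 (30%) overlapped an ESC island, beside 34.7%. The Igf2r span gave 6 of the 12 in each list, and without it the shares were 26.1% and 20.7%. By bases, 98.8 kb were common to both, 62.9% of ESC and 24.2% of NPC span bases, beside 51.6% and 32.3% in the lists. Of these, 73.2 kb lay in the Igf2r span, which lifts the ESC share above the list value. The ESC share was 90.8% at Igf2r and 66.7% at Peg3. It was below the list value at H19 and Igf2 (48.6%), Meg3 and Dlk1 (36.7%) and Cdkn1c (20.8%), and 0% at Snrpn, Peg10 and Mest.

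The 12 shared regions had a median log2 NPC over ESC in RPM of -0.47, close to the -0.49 over all 14475 shared regions. A value above 0 was found in 4 of 12 regions, beside 22.1% of all. These 4 were 3 of the 6 Igf2r regions (0.11, 0.20 and 0.28) and the Meg3 and Dlk1 region at 110839201 to 110849200 (0.78). Scaling to the reads in shared regions, in place of all island reads, moves every value up by 0.41 and gives 6 of 12 above 0, beside 43.7% of all shared regions.

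Read density, in RPM per kb of called island, was lower in NPC in all 12 shared regions, beside 98.4% of all shared regions. The median log2 was -0.42, beside -0.51 over all. For 6 of the 12 regions, all at Igf2r, this direction depends on the scaling to island reads. In reads per kb without scaling, these 6 of 12 regions had the higher density in NPC. The median log2 without scaling was 0.02, beside -0.07 over all shared regions. The scaled log2 was lowest at the 2 dense ESC positions. At Cdkn1c the density was 10.6 RPM per kb in ESC and 3.21 in NPC, a log2 of -1.73, and at the second Peg3 region it was 8.03 and 2.78, a log2 of -1.53. Without scaling these log2 values were -1.29 and -1.09. The 6 Igf2r regions had the smallest differences, with log2 values of -0.40 to -0.04. The widest of them had 4.94 RPM per kb in ESC and 3.85 in NPC. The 4 regions at H19 and Igf2, Meg3 and Dlk1 and the first Peg3 position lay between, at -0.55 to -0.45.

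**Figure D4:**
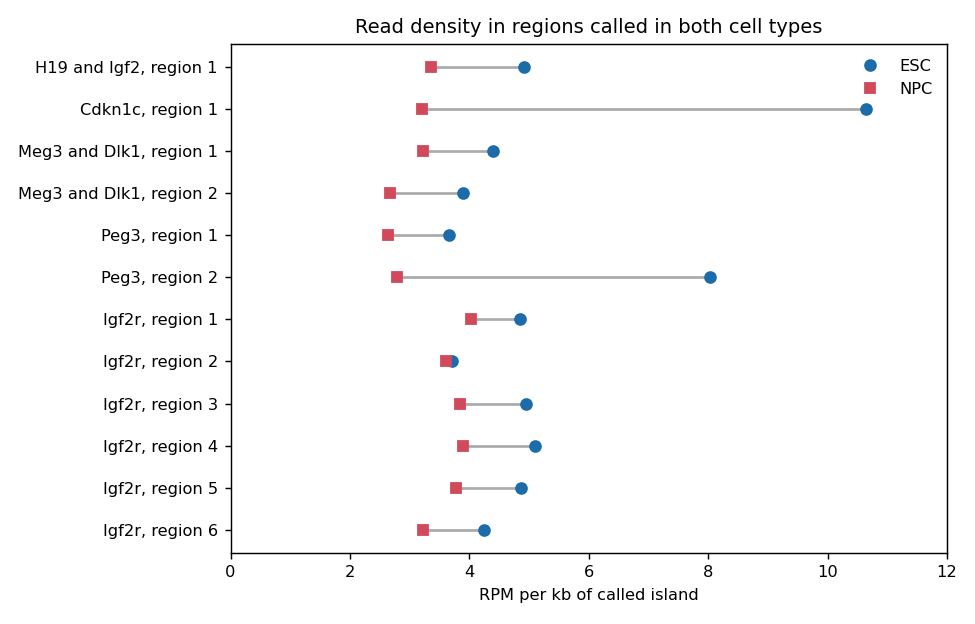
Each row is 1 region called in both cell types, in order of position within its span, with RPM per kb of called island in ESC (blue circle) and NPC (red square), 1 library each. The NPC value lies to the left in all 12 rows, farthest at Cdkn1c (10.6 and 3.21) and at the second Peg3 region (8.03 and 2.78). In reads per kb without scaling, 6 of 12 regions were higher in NPC.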

How the data were processed

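H4K16ac ChIP-seq islands of ESC and NPC, 1 library each, were used, and the input libraries entered only through the authors' calls. The build is mm9 and the tools are SICER 1.1, Bowtie 0.12.7, bedtools 2.10.1, SAMtools 0.1.7 and CASAVA 1.8.2, per the submitters' processing notes. Names of the deposited lists give 200 bp windows, 600 bp gaps and an FDR of 0.01. Each gives positions and a read count per island, as deposited by the authors and taken here to be without scaling. No header or label states what this number is, and it was read as a count from its values. All values in reads, RPM and reads per kb, and their intervals, rest on this reading. Duplicate removal and the use of input are not given in the sources used here.

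Positions were moved by 1 to count from 1. Islands were clipped at span ends for covered bases, and reads of every overlapping island were counted whole. In NPC 4 islands reached past a span end, and in ESC 0. Islands of both lists that overlapped or touched were joined into regions. Windows were laid end to end along each autosome up to its last island. Median reads per island of the spans were 280 (ESC) and 695 (NPC), for a counting error of 5.98% and 3.79%. The spans, gene groups and limits were chosen with earlier results of these data known. Every span is described, but within it only some of the islands and shared regions are given by position. The limits of 120 reads per kb and 8 kb, and the promoters shown, were chosen with values in view. No list of other imprinted genes or of cell type markers was run, since no mm9 annotation was used here. Alternatives were other span ends, read and width minimums, overlap rules, joined gaps and scalings. Overlap, coverage and region code was tested on simulated islands and against bedtools 2.31.1. Scripts used scipy 1.17.1, pandas 2.3.3, numpy 2.4.6 and matplotlib 3.10.9 under Python 3.11.15.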

Additional observations from a re-analysis of the deposited data

How the results depend on the processing

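Leaving out a library was not possible with 1 per cell type, so no value has a replicate check. No paired analysis was possible because each group has 1 sample. The direction of covered bases was the same in each of the 8 spans under wider spans, read and width minimums and equal list lengths, and 4 of 8 had more in NPC under each, and by RPM. The size of the NPC minus ESC difference moved with the read minimum at Peg3 (-2.13 to -3.47 percentage points) and Peg10 (-6 to -2.8), and with wider spans at Snrpn (-2.67 to -1.26) and Mest (-4.6 to -8.7). Covered shares of ESC and NPC were 9.65% and 27.1% with spans widened by 50 kb on both sides, and 10.1% and 28.2% with islands of at least the median reads of their list. Without the Igf2r span, a setting chosen after seeing the data like that of equal list lengths, they were 6.70% and 24.8%. The read share, 854 RPM in ESC and 1467 RPM in NPC, was 909 and 1686 RPM with the read minimum, and 1395 RPM in NPC with reads in proportion to the part inside the span. Spans without an NPC island numbered 2 when widened, Snrpn and Peg10, since 2 NPC islands lay near Mest. Over the settings run, the share of overlapped ESC islands ranged from 26.1% to 38.9%, and that of NPC islands from 20.7% to 39.1%. The median log2 of shared regions ranged from -0.47 to -0.06. These rest on 32 and 40 islands and 12 regions. Islands of 1 span are not independent, so no interval is given for these values. The unknown depth outside islands limits any reading of spans without an island.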

Other observations

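Flanks of 50 kb on both sides give the setting of each span. With them, the H19 and Igf2 locus held 3 ESC and 14 NPC islands, with 2.53% and 50% of bases covered, and Cdkn1c held 6 and 12, with 7.3% and 35.8%. The Igf2r locus held 11 and 18, with 30.9% and 57.5%. Peg10 with flanks held 5 ESC islands and no NPC island (4.5% of bases in ESC), and Mest held 7 ESC and 2 NPC islands (11.8% and 3.1%). Snrpn with flanks still held its single ESC island.

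The chromosomes of the spans also differed. Median covered shares of 200 kb windows in NPC were 4.65% on chromosome 7, where H19 and Igf2 lie, 1.45% on chromosome 12, where Meg3 and Dlk1 lie, and 5.35% on chromosome 17, where Igf2r lies. In ESC the same medians were 2.1%, 2.2% and 2.5%.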
